A study of Rattus norvegicus with 12 samples.

Results

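The comparison set the mean of 3 groups of rat aortic vascular smooth muscle cells treated with angiotensin II (Ang II) against untreated cells of the same kind, and asked which genes were changed across the whole course from 6 to 24 h and how constant the change was. For each gene the 3 means of the Ang II groups at 6, 12 and 24 h were averaged with equal weight, and the mean of the 3 control arrays was subtracted. It used all 12 arrays of the study, 9 of Ang II and 3 of control, and 14506 genes, each read by the probe set with exactly 1 gene symbol and the highest mean over the 12 arrays, out of 29214 rows in the deposited value table. The groups were cells of Sprague-Dawley rat aorta given 100 nM Ang II for 6 h, for 12 h or for 24 h, and control cells that received no Ang II, with 3 arrays each (Affymetrix Rat Gene 1.0 ST, which read RNA through many short probes along each transcript). All groups were grown in 10% serum and then held without serum for 48 h. No allele or transgene is named in the labels for any group.

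The times stand as the sample titles and the design text give them, although the treatment protocol names 1, 3 or 24 h. Whether the 3 arrays of a group, labelled as biological repeats, stem from different animals or dishes is not stated, and a p-value here reflects array-to-array spread that may be technical. The control arrays are all labelled 0 h, and untreated cells kept for as long as the treated ones were not analysed here. Exposure to Ang II and added time in culture therefore cannot be told apart in any comparison with control. The same holds for longer exposure and longer culture in comparisons among the Ang II times.

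Ang II is the effector peptide of the renin-angiotensin system. In vascular smooth muscle it acts mainly through the AT1 receptor, a receptor coupled to G proteins that raises cell calcium and activates protein kinase C and MAP kinases, and the cells contract, grow and lay down matrix. Transcription factors of the immediate-early class are induced within minutes of such a stimulus, and their messenger RNAs are short-lived, whereas genes of matrix, proteolysis and metabolism respond over hours. An average over late times therefore misses the early pulse. It can also be carried by part of the times, so a call on average does not by itself show a sustained change.

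Array medians of the deposited log2 values lay between 7.22 and 7.32. The interquartile range of an array was 3.37 to 3.39 in control, 3.31 to 3.42 at 6 h and 3.31 to 3.44 at 12 h. At 24 h it was narrower, at 3.22 to 3.30. The standard error of the averaged log2 change had a median of 0.0545 (0.0667 for a single time). It differed between genes with the spread of their arrays, for example 0.030 for Dusp14 and 0.17 for Usp18. The label of the cells was set against marker genes. Of 11 measured smooth muscle markers 9 rose on average and 0 fell, and their mean level lay between 12.05 and 12.48 in the Ang II arrays, against 11.98 to 12.02 in the control arrays. Of 9 measured fibroblast markers 0 rose and 6 fell, among them Pdgfra, Lum and Dcn, and their mean level lay between 8.84 and 8.97 in the Ang II arrays, against 9.23 to 9.26 in the control arrays. In bulk RNA, fewer cells of a type and less RNA per cell cannot be told apart. Of 12 endothelial markers 3 rose and 1 fell, and of 12 leukocyte markers 0 rose and 1 fell. Of all genes 15.9% were called higher and 15.1% lower. Of 8 epithelial markers 1 rose, Krt18 (0.67), and 0 fell, and of 6 Schwann and neuronal markers 0 rose and 0 fell. By mean level 7 of the 12 endothelial markers, and 10 of the 12 leukocyte markers, stayed under 6.61, the level under which 95% of 788 olfactory receptor genes lay. That level is a rough mark of background, because probe sets differ in their own background and the deposited values carry no detection call. Pecam1 and Ptprc, defining markers of endothelial cells and leukocytes, were both under it. Among genes described with a change, the control mean lay under the mark for Olr1, Tfpi2, Usp18, Serpinb2, Nox1, Itga4, Ibsp, Or10x1b, Or2a5, Or2a25 and Agtr1b, and the mean of at least 1 Ang II time for the falling genes Adamts3, Pdk4, Slc26a7, Aldh1a2 and Nudt1. The sizes of these changes, and ranks that rest on them, are uncertain.

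Over the course from 6 to 24 h, Plat, which activates plasminogen, was 7.65-fold higher and Acan, the matrix proteoglycan aggrecan, 5.13-fold higher in Ang II than in control cells. The early transcription factor gene Egr1 was 6.03-fold lower and Agtr1a, the AT1 receptor gene, 3.67-fold lower. On average, of 24 measured immediate-early factors 18 fell, of 25 mitosis genes 24 fell, and of 21 cholesterol synthesis genes 18 rose. At every time 14 of the factors and 22 of the mitosis genes fell, but only 3 of the cholesterol synthesis genes rose. The median change of the cholesterol synthesis genes at 24 h was −0.052. Averaged over the 3 times, 2302 genes were higher and 2188 lower in Ang II than in control cells (limma, Benjamini-Hochberg adjusted p under 0.05 over all genes). These were 15.9% and 15.1% of the genes tested, 31.0% in all. Most changes were small: 220 genes rose and 274 fell by at least 1.5-fold. The median averaged log2 change over all genes was 0.024. All 9 Ang II arrays lay on the same side of all 3 control arrays in 2265 genes, 15.6% of those tested, of which 2207 were called in that direction. A fit that ignored the times and set the 9 Ang II arrays against the 3 control arrays as plain groups called 1635 genes, because differences among the times then count as error. Against a minimum change of 1.2-fold in place of 0, 953 genes were called.

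Differences among the 3 Ang II times held more of the variation between groups than the average did. Of the sum of squares between the 4 groups, taken over all genes, 39.4% lay in the averaged contrast and 60.6% in differences among the 3 Ang II times. Per degree of freedom the order was the reverse, at 2003 for the averaged contrast and 1543 for the differences among times, against a summed residual mean square of 159. Differences among the Ang II times were found in 6539 genes (45.1%; limma F test of 12 h minus 6 h and 24 h minus 12 h, adjusted p under 0.05). The 2 contrasts of this test compare Ang II means alone and, with equal groups, are orthogonal to the averaged one, but the error came from all 12 arrays, control included. Of the genes called on average 73.2% differed among the times, against 32.5% of those not called on average.

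At every one of the 3 times, in the direction of the average, 1538 genes were called (10.6%), 720 higher (4.96%) and 818 lower (5.64%). The 3 comparisons share the control arrays, so a control mean that happens to be high or low moves all 3 together. Of the genes called on average 34.3% met this rule, and of the 494 called genes with an averaged change of at least 1.5-fold 413 did (83.6%). Among genes called on average, 36 were called at no single time, 1025 at 1 time, 1746 at 2 times and 1683 at 3 times, counting calls in either direction. Of the 1025, 534 were called at 6 h, 130 at 12 h and 361 at 24 h. The share of a gene's variation between groups that lay in the averaged contrast had a median of 79.6% in genes called at every time and of 53.6% in genes called on average. These genes were selected on the same group means, so both shares follow in part from the selection and do not test constancy.

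Of the genes called at every time, 495 did not pass the F test among the times and are called steady here (3.41% of all genes, 251 higher and 244 lower). A p above the threshold does not show equal levels, and in these genes the 3 Ang II means spanned up to 0.33 (higher genes) and 0.35 (lower genes) on the log2 scale, with medians of 0.095 and 0.11. Their median averaged change was 0.29 in the higher and −0.32 in the lower genes. Large steady changes were uncommon: 19 rises and 40 falls reached 1.5-fold. In 724 genes (4.99%) the calls at 2 times had opposite signs, and 537 of these were not called on average.

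**Figure D1:**
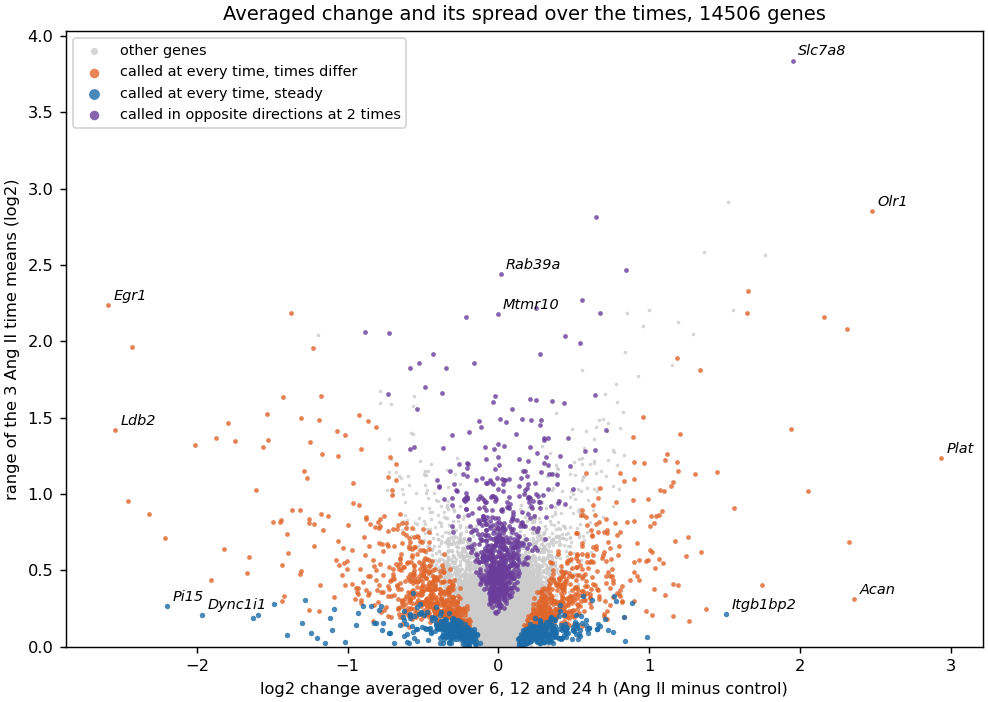
Each point is 1 of 14506 genes. The x axis gives the log2 change averaged over 6, 12 and 24 h of Ang II minus control, and the y axis the range of the 3 Ang II time means in log2 units; colours mark genes called at every time whose times differ, steady genes, genes called in opposite directions and all others. The genes with opposite calls cluster around an average of 0, and the steady genes lie along the lower edge on both sides.

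The genes of at least 1.5-fold that were called at every time differed in their course by direction. Among the 167 higher ones, the change was largest at 6 h in 78, at 12 h in 59 and at 24 h in 30. Their median log2 changes at 6, 12 and 24 h were 0.92, 0.84 and 0.63, and the median gene kept 69.5% of its 6 h change at 24 h. Among the 246 lower ones the change was largest at 6 h in 117, at 12 h in 56 and at 24 h in 73. Their medians were −0.93, −0.77 and −0.78, and the median gene kept 89.0% of its 6 h change. Differences among the times passed the F test in 148 of the 167 higher and 206 of the 246 lower genes.

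The genes described first are the 12 largest averaged rises and falls among called genes in which all 9 Ang II arrays lay on one side of the 3 control arrays. Plat, the tissue plasminogen activator that converts plasminogen to plasmin, had the largest averaged rise. Its log2 values were 11.78, 11.68 and 11.77 at 6 h, 11.64, 11.62 and 11.56 at 12 h and 10.46, 10.48 and 10.57 at 24 h of Ang II, against 8.18, 8.40 and 8.46 in control. The averaged log2 change was 2.94 ± 0.055 (SE, n = 3 arrays per group), 7.65-fold, with an adjusted p of 3.9e-11 (limma). Every Ang II array lay far above every control array, and the 24 h arrays formed the lower end of the Ang II values.

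Olr1, which encodes LOX-1, a scavenger receptor that takes up oxidised lipoproteins, came next in this set with 2.48 ± 0.10 (5.58-fold, adjusted p = 7.1e-09). Its 9 Ang II values had a minimum, median and maximum of 6.94, 9.56 and 10.25, against 6.36, 6.69 and 6.41 in control, a mean under the background mark of 6.61, so the size of this change and its rank are uncertain. The changes at 6, 12 and 24 h were 3.61, 3.08 and 0.76, so the average was carried by the earlier times. Acan, the core protein of the large proteoglycan aggrecan, was the opposite case among the strong rises. Its Ang II values spanned 12.23, 12.44 and 12.58 (minimum, median, maximum), against 10.10, 10.09 and 9.99 in control, and its changes at the 3 times were 2.38, 2.50 and 2.19. The averaged change of Acan was 2.36 ± 0.034 (5.13-fold, adjusted p = 3.7e-12), and the 3 time means differed by 0.31.

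Ptprn, a membrane protein of dense-core secretory vesicles, averaged 2.33 ± 0.05 with time changes of 2.57, 2.53 and 1.89. Of 17 measured dense-core vesicle genes 2 rose, Ptprn and the prohormone-processing carboxypeptidase gene Cpe (0.31 ± 0.045), and 1 fell, the small GTPase gene Rab27b (−0.23 ± 0.047). Fgl2, a fibrinogen-like protein that can cleave prothrombin, averaged 2.32 ± 0.095 and declined over the course, with changes of 3.34, 2.35 and 1.26. Esm1, which encodes the secreted proteoglycan endocan, averaged 2.16 ± 0.06 (changes of 2.96, 2.72 and 0.80), and Flt1, VEGF receptor 1, averaged 1.94 ± 0.043 (changes of 2.49, 2.28 and 1.06). Gldn, the adhesion protein gliomedin, averaged 2.05 ± 0.082. The protease inhibitor gene Tfpi2, with all 3 control values under the mark of 6.61, averaged 1.65 ± 0.10 and the prostaglandin transporter gene Slco2a1 1.65 ± 0.056, and in both the 24 h change was the smallest, at 0.50 and 0.38. Tll1, a tolloid-like metalloprotease, averaged 1.56 ± 0.035, and Mustn1, a nuclear protein of muscle and skeleton, averaged 1.75 ± 0.046 with changes of 1.54, 1.94 and 1.77. In all 12 genes the F test among the times passed, with adjusted p between 2.55e-09 and 0.000307.

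The largest averaged fall was that of Egr1, a zinc finger transcription factor of the immediate-early class. Its log2 values were 12.19, 12.25 and 12.34 at 6 h, 9.87, 10.14 and 10.06 at 12 h and 10.57, 10.58 and 10.60 at 24 h of Ang II, against 13.57, 13.51 and 13.56 in control. The averaged change was −2.59 ± 0.053 (6.03-fold lower, adjusted p = 6.89e-11). All 9 Ang II arrays lay under the control arrays, and the 6 h arrays were the nearest to them.

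A further 4 immediate-early factors stood among these 12 falls: Fos, the AP-1 subunit (−2.46 ± 0.081), the orphan nuclear receptor gene Nr4a1 (−2.43 ± 0.086), Egr3 (−2.32 ± 0.07) and Egr2 (−2.22 ± 0.066). Each had its smallest fall at 6 h. Nr4a1, for example, had Ang II values of 8.46, 9.32 and 10.70 (minimum, median, maximum), against 12.05, 11.73 and 12.02 in control, and changes of −1.36, −3.33 and −2.61. Ldb2, a cofactor that binds LIM-domain proteins, averaged −2.55 ± 0.11 and ran the other way in time, with changes of −3.15, −2.75 and −1.74.

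Agtr1a, the rat gene of the main vascular Ang II receptor (NCBI gene 24180), was also among the 12. Its values were 9.29, 9.10 and 9.27 at 6 h, 9.91, 9.91 and 9.97 at 12 h and 10.60, 10.51 and 10.65 at 24 h of Ang II, against 11.75, 11.80 and 11.80 in control. The averaged change was −1.87 ± 0.046 (3.67-fold lower, adjusted p = 2.25e-10), and the fall became smaller at each later time, with time changes of −2.57, −1.85 and −1.20 (F test adjusted p = 2.39e-08). The other falls were those of Edn1, the precursor of the vasoconstrictor endothelin-1 (−1.91 ± 0.058, changes of −1.64, −2.07 and −2.02), Thbd, the thrombin-binding anticoagulant thrombomodulin (−1.82 ± 0.05), the secreted Wnt modulator gene Sfrp2 (−2.01 ± 0.066, changes of −1.28, −2.16 and −2.60), the peptidase inhibitor gene Pi15 (−2.20 ± 0.11) and Dync1i1, an intermediate chain of the motor dynein (−1.97 ± 0.077). Pi15 and Dync1i1 were the 2 of these 12 that did not pass the F test among the times, with adjusted p of 0.242 and 0.155.

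**Figure D2:**
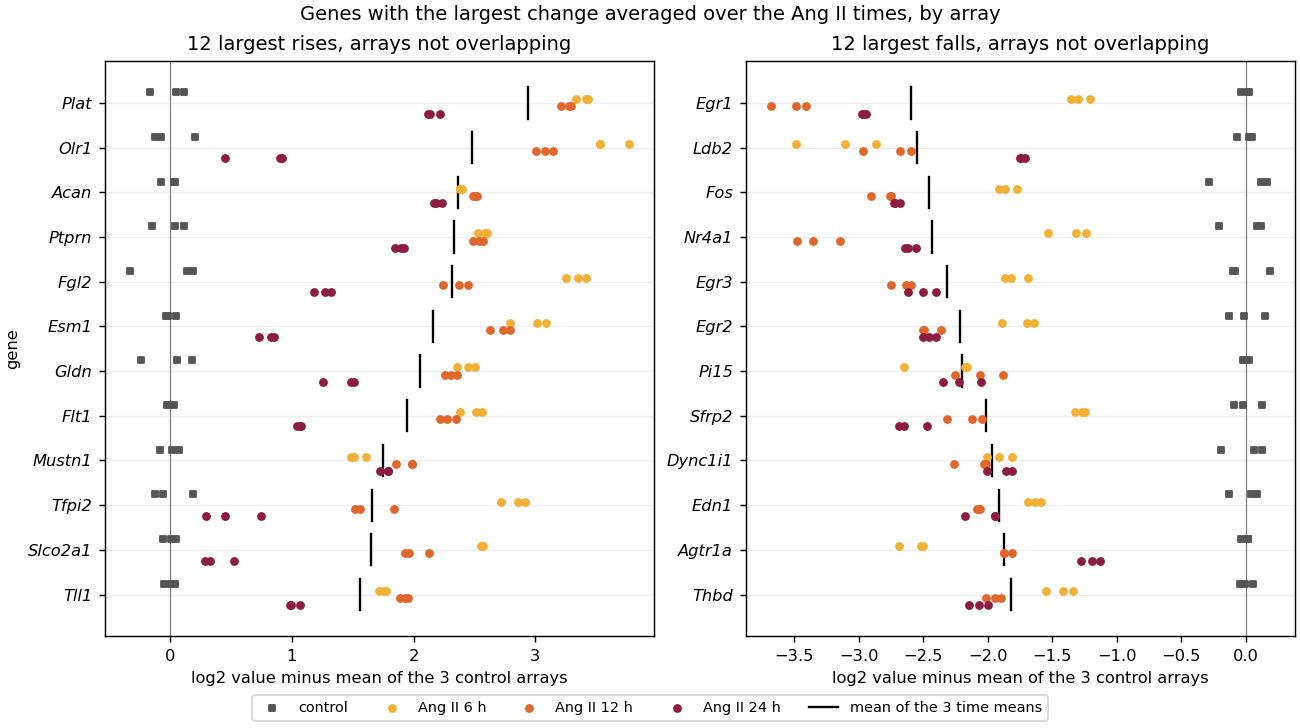
Log2 values of the 12 largest averaged rises (left) and falls (right) among genes whose Ang II and control arrays did not overlap, each array shown as its value minus the mean of the 3 control arrays on the x axis, with 1 row per gene. Squares are control arrays, circles are Ang II arrays coloured by time, and black bars mark the averaged change; the 24 h arrays sit nearest to control in most of the rises, while Egr1, Fos and Nr4a1 sit nearest to control at 6 h.

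Among steady genes the largest rise was that of Itgb1bp2, which encodes melusin, a muscle protein that binds integrin beta 1. Its Ang II values had a minimum, median and maximum of 8.74, 8.97 and 9.16, against 7.54, 7.41 and 7.37 in control. It averaged 1.51 ± 0.058 (2.85-fold, adjusted p = 4.88e-09), with time changes of 1.40, 1.61 and 1.52 (F test adjusted p = 0.0764). Cspg4, the proteoglycan NG2 of mural cells, varied little: its Ang II values lay between 11.92 and 12.05, against 11.00, 11.01 and 11.03 in control. Its changes at 6, 12 and 24 h were 1.02, 0.96 and 0.98. Txnip, the thioredoxin-interacting protein that restrains glucose uptake, had changes of 0.86, 0.84 and 0.82 (average 0.84 ± 0.04), and Fabp3, the fatty acid-binding protein of heart and muscle, had 0.77, 0.77 and 0.96 (average 0.83 ± 0.10). The remaining 2 of the 6 were olfactory receptor genes, Or2a5 (0.89 ± 0.11) and Or2a25 (0.78 ± 0.075), whose control values of 5.92, 6.40 and 6.49 and 5.57, 5.61 and 5.72 lay under the mark of 6.61 described above. Or2a25 had an F test adjusted p of 0.0502, just above the threshold of 0.05.

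Steady falls were led by Pi15 and Dync1i1. Pi15 had Ang II values of 7.01, 7.48 and 7.78 (minimum, median, maximum), against 9.68, 9.64 and 9.66 in control. Next came Cd24, a small surface glycoprotein (−1.63 ± 0.051, changes of −1.51, −1.70 and −1.67), and the flavin-containing monooxygenase gene Fmo2 (−1.59 ± 0.072). The label of Cd24 as steady was borderline, with an F test adjusted p of 0.0521. The stress-responsive transcription factor gene Atf3 averaged −1.49 ± 0.13, with Ang II values of 6.94, 7.33 and 7.52 (minimum, median, maximum) against 9.03, 8.38 and 8.94 in control. Aspa, which cleaves N-acetylaspartate, had changes of −1.38, −1.38 and −1.45 (average −1.40 ± 0.078). In each of these genes all 9 Ang II arrays lay under all 3 control arrays.

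The genes that cancelled in the average moved far at single times. Mtmr10, a myotubularin-related protein, had log2 values of 11.14, 11.30 and 11.23 at 6 h, 9.82, 9.85 and 9.89 at 12 h and 9.17, 9.00 and 8.97 at 24 h of Ang II, against 10.04, 10.08 and 10.01 in control. Its average was −0.0054 ± 0.048 (adjusted p = 0.952), while the F test among the times gave an adjusted p of 1.58e-09. The control arrays lay between the 6 h and the 24 h arrays. A further 4 genes were called higher at 6 h and lower at a later time: the serum- and glucocorticoid-regulated kinase gene Sgk1 (changes of 1.05, −0.59 and −0.52), the ETS transcription factor gene Etv5 (0.78, −0.069 and −0.82), Noct, the phosphatase nocturnin (1.04, −0.52 and −0.26), and Samd5 (1.01, −0.062 and −0.48).

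Rab39a, a small GTPase of vesicle traffic, was the mirror case. It had 8.92, 8.61 and 8.74 at 6 h, 10.32, 10.33 and 10.25 at 12 h and 11.22, 11.15 and 11.23 at 24 h of Ang II, against 10.03, 10.04 and 10.14 in control. The average was 0.015 ± 0.057 (adjusted p = 0.885) and the time changes were −1.31, 0.23 and 1.13. Rgs4, which shortens signalling by G proteins, had changes of −1.10, −0.14 and 0.76. The glycogen phosphatase gene Epm2a had −0.59, −0.27 and 0.90, the potassium channel subunit gene Kcne4 −0.91, 0.041 and 0.53 and the transporter gene Slc35f2 −0.52, −0.0031 and 0.87. Of the 537 opposite genes not called on average, 297 had a positive change at 6 h and 240 a negative one.

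**Figure D3:**
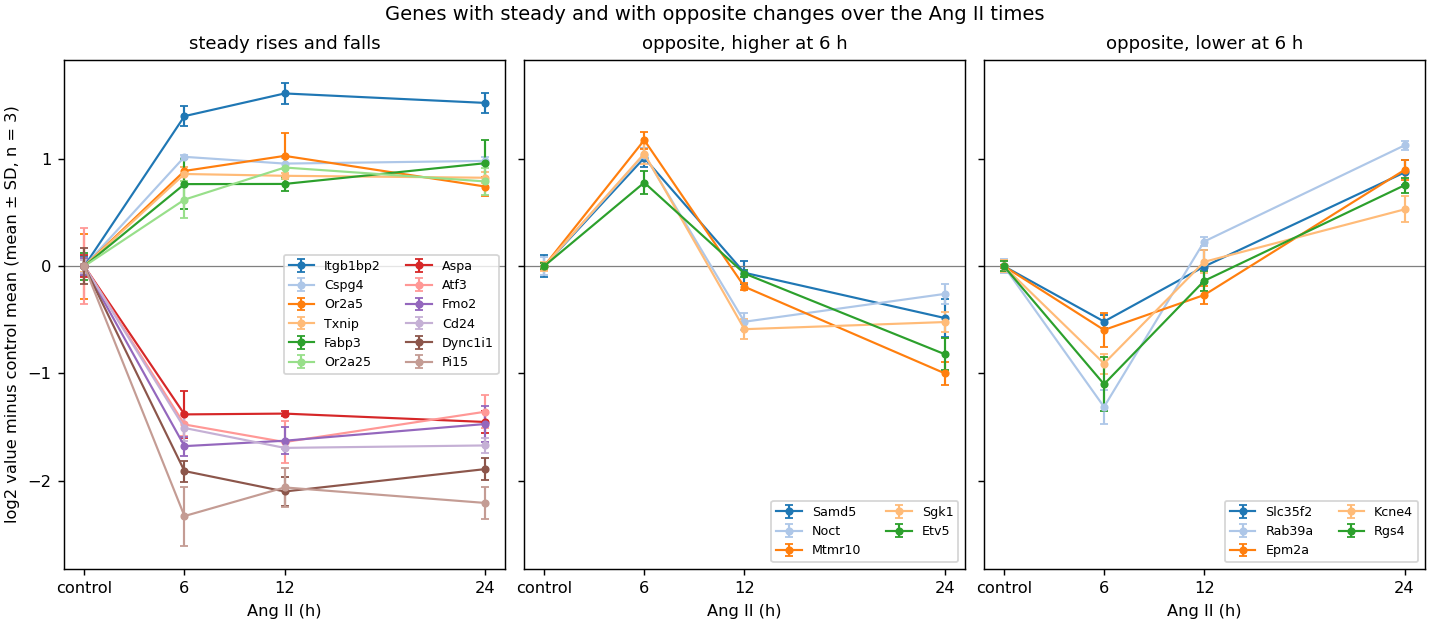
Group means of log2 values minus the control mean (y axis, bars give the SD of 3 arrays) for control and 6, 12 and 24 h of Ang II (x axis, to scale in hours). The steady genes are nearly level between 6 and 24 h, whereas Mtmr10 passes through the control level between 6 and 12 h and Rab39a rises to 1.13 at 24 h.

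Averaging also brought in a few small changes that passed at no single time. There were 21 such rises and 15 such falls, the largest of 0.33. Those with the smallest p were Or10x1b (0.33 ± 0.096), Ibsp, a bone matrix protein (0.21 ± 0.064), and the small GTPase gene Rab10 (0.11 ± 0.035) among the rises, and Fam151b (−0.13 ± 0.039), the nucleotide hydrolase gene Nudt1 (−0.16 ± 0.049) and Use1 (−0.14 ± 0.043) among the falls. The range of the 3 time means of each lay between 0.009 and 0.019.

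The averaged changes of gene lists are described here by counts and medians, to be read against 31.0% of genes called and a median of 0.024 over all genes. The share called depended on level. In a fit of the 7253 genes at or above the median level 4160 were called, while of 4467 genes under 6.61 only 190 rose and 104 fell. A list of well-expressed genes can therefore exceed 31.0% without exceeding genes of like level, and lists were not matched for level. Apart from Agtr1a, the angiotensin system moved little. Of 11 measured genes 2 rose and 2 fell. Agtr1b, the other AT1 receptor gene of the rat, rose slightly (0.27 ± 0.067), with Ang II values of 6.17, 6.44 and 6.56 (minimum, median, maximum) against 5.99, 6.20 and 6.23 in control, so that the groups overlapped, all under the mark of 6.61. Agtr2, the AT2 receptor gene, averaged −0.11 ± 0.10 (adjusted p = 0.476). The peptidase gene Mme, neprilysin, which degrades angiotensins among other peptides, fell (−0.42 ± 0.058), and Atp6ap2, the prorenin receptor, rose (0.26 ± 0.039).

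Immediate-early transcription factors were lower as a group. Of 24 measured factors 2 rose and 18 fell on average (83.3% called), 14 of them fell at every time, and the median log2 change was −0.85. The medians at 6, 12 and 24 h were −0.64, −1.10 and −0.93. The EGR and NR4A members had a median of −2.22 over 7 genes and the AP-1 subunits one of −1.22 over 7. The 2 rises were those of Fosl1, an AP-1 subunit (0.65 ± 0.05, changes of 2.35, 0.048 and −0.46), and Klf10, a TGF-beta-inducible factor (0.49 ± 0.039, changes of 0.70, 0.52 and 0.24). Fosl2, another AP-1 subunit, was not called (0.023 ± 0.032), with time changes of −0.25, −0.038 and 0.35. Genes of the list outside these families fell in 7 of 10 and rose in 1. Srf, the serum response factor on which many of these genes depend, averaged 0.085 ± 0.035 and was not called on average. Its changes at 6, 12 and 24 h were −0.089, 0.17 and 0.18, and it was called higher at 12 and 24 h.

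Of these factors 15 had a RefSeq promoter (250 bases before to 50 after the start of transcription, GRCr8), and 4 of the 15 held a CArG box, the element bound by serum response factor, on either strand, against 1.28% of 11951 genes. The promoter of Egr2 is shown because its gene is among the 12 largest falls and because its CArG box, in capitals, is the kind of element through which these genes respond to serum.
Egr2 (chr20:21054392-21054691, minus strand): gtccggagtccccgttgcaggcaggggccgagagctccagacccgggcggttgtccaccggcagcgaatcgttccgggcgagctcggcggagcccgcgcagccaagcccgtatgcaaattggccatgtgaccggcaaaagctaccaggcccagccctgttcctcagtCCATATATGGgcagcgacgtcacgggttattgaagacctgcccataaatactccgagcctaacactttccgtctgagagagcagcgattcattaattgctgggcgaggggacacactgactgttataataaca
A match is a description of the letters in this window. TGANTCA, a loose form of the AP-1 element with any base in the middle, was found in 0 of the 15, against 6.23% of all genes. It was in 44 of 586 genes called higher at every time (7.51%) and 26 of 660 called lower at every time (3.94%). Among the 12 largest rises, 10 had a promoter and 2 of these held TGANTCA, Olr1 as TGAGTCA and Tfpi2 as TGAATCA. The promoter of Olr1 is given with that element in capitals.
Olr1 (chr4:164634498-164634797, minus strand): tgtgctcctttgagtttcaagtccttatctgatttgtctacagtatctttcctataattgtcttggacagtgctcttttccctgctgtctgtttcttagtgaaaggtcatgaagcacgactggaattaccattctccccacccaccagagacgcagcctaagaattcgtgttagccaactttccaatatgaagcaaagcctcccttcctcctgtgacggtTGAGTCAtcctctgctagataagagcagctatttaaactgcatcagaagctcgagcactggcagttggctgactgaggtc

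Feedback regulators of MAP kinases, which are themselves induced by that pathway, were split. Of 17 measured genes 5 rose and 6 fell, and 7 were called in opposite directions at 2 times, beside 4.99% of all genes. Their medians at 6, 12 and 24 h were 0.40, −0.32 and −0.27. Dusp5, a nuclear phosphatase of ERK, averaged −0.73 ± 0.058 from changes of 0.61, −1.44 and −1.34. Dusp1 (−0.65 ± 0.044) and Dusp8 (−0.51 ± 0.05) fell at every time, and Dusp14 rose at every time (0.45 ± 0.03). Spry4, a sprouty inhibitor, was not called on average (−0.13 ± 0.054), with changes of 0.40, −0.51 and −0.27.

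Cell cycle genes were lower, most of those of mitosis at every time. Of 64 measured genes 3 rose and 48 fell (79.7% called), and 30 fell at every time, with a median of −0.34. Within the list, 24 of 25 mitosis genes fell on average and 22 of them at every time, with medians at 6, 12 and 24 h of −0.55, −0.33 and −0.57. DNA replication genes fell in 14 of 20, with 4 at every time, and their medians were −0.29, −0.042 and −0.49. The exception among the mitosis genes was Bub3 (−0.081 ± 0.042), which was not called. G1 cyclins and inhibitors rose in 3 and fell in 10 of 19, the rises being those of the D-type cyclin gene Ccnd2 (0.18 ± 0.035), its kinase gene Cdk6 (0.30 ± 0.041) and the inhibitor gene Cdkn1a (0.10 ± 0.034).

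Ccnb1, the mitotic cyclin B1, had Ang II values of 9.09, 9.32 and 9.56 (minimum, median, maximum), against 10.16, 10.09 and 10.16 in control. It averaged −0.80 ± 0.047 (adjusted p = 1.21e-07), with changes of −0.83, −0.63 and −0.93. Bub1b, the spindle checkpoint kinase, averaged −0.67 ± 0.062, and Top2a, the topoisomerase that separates chromosomes, averaged −0.64 ± 0.046. In all 3 genes the Ang II arrays lay under the control arrays, and the 12 h fall was the smallest. Ccng2, an atypical cyclin of cells that leave the cycle, fell too (−0.71 ± 0.06), and the D-type cyclin gene Ccnd3 was not called (−0.011 ± 0.033).

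Of the mitosis genes 21 had a RefSeq promoter, and 14 of them (66.7%) held TTTGAA, the core of the cell cycle genes homology region (CHR) through which many genes of mitosis are repressed in resting cells, on either strand. Of all 11951 genes with a promoter 15.2% held it, of the 660 called lower at every time 20.9% and of the 586 called higher at every time 8.19%. The median GC content of these promoters was 57.7%, 58.0%, 61.0% and 63.0% in the same order. CCAAT, the box bound by NF-Y that often stands near a CHR, was in 17 of the 21 (81.0%), against 38.3% of all genes. The promoters of the 3 named mitosis genes are shown to let the windows be compared. Capitals mark TTTGAA or its reverse complement in Bub1b and Top2a and CCAAT or its reverse complement in Ccnb1, whose window held no TTTGAA.
Bub1b (chr3:126016817-126017116, plus strand): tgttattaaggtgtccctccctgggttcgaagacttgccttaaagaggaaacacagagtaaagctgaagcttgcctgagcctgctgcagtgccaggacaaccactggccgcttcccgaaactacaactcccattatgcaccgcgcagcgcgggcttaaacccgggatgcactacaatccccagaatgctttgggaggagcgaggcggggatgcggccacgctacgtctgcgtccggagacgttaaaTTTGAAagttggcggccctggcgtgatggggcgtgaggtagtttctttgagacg
Top2a (chr10:84473044-84473343, minus strand): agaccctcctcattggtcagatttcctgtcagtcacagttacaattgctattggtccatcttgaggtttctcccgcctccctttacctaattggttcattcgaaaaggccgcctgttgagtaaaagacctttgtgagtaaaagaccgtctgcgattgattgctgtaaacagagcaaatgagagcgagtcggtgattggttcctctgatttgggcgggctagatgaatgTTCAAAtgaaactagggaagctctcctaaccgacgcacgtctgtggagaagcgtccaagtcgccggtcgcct
Ccnb1 (chr2:33655176-33655475, minus strand): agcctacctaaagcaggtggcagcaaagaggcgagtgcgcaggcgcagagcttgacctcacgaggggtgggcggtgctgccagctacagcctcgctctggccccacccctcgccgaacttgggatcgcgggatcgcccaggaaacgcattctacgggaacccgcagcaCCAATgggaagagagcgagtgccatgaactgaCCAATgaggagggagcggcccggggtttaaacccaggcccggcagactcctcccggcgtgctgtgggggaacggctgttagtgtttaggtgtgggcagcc
The TTTGAA match began 4 bases before the start in Bub1b and 22 in Top2a. These are descriptions of the letters, and no binding was measured.

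**Figure D4:**
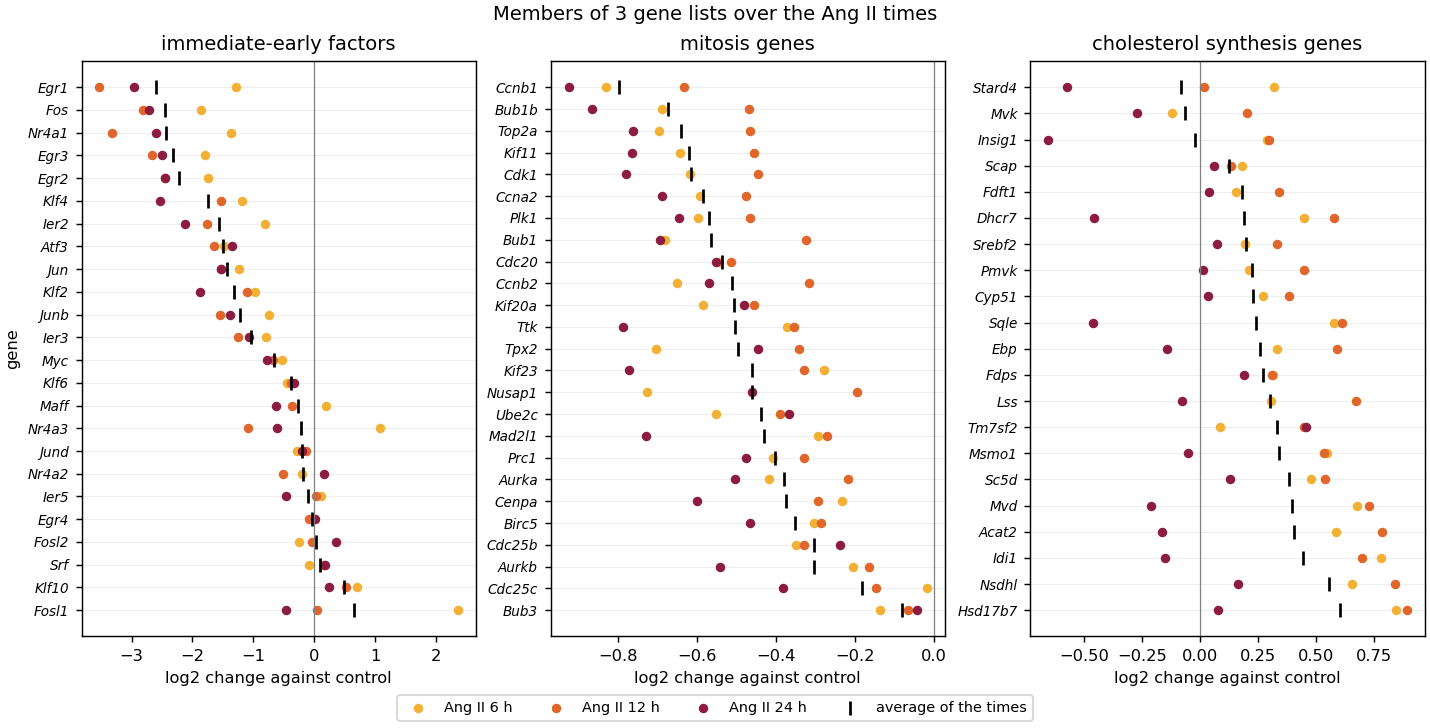
Log2 change against control (x axis) of each measured member (rows) of the immediate-early, mitosis and cholesterol synthesis lists, at 6, 12 and 24 h of Ang II (coloured points) and averaged over the times (black bars). Most immediate-early and mitosis genes lie left of 0 at every time, whereas most 24 h points of cholesterol synthesis genes lie near or left of 0.

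Starvation genes under control of FoxO factors fell: of 20 measured genes 1 rose and 13 fell, with a median of −0.28. The rise was that of Trib2, a pseudokinase that restrains FoxO3 (0.44 ± 0.043, changes of 0.92, 0.26 and 0.13). Sesn3, the stress-induced sestrin 3, averaged −1.25 ± 0.049 (changes of −2.09, −0.75 and −0.90), and Pdk4, a kinase that shuts down pyruvate dehydrogenase, averaged −0.63 ± 0.065. Btg1 (−0.47 ± 0.035) and Pik3ip1 (−0.44 ± 0.075), both restraints on growth, fell as well. Factors that destabilise messenger RNAs were lower: of 10 mRNA decay genes 0 rose and 6 fell, among them Zfp36, which encodes tristetraprolin (−0.73 ± 0.068), Zfp36l1 (−0.57 ± 0.032), Zfp36l2 (−0.59 ± 0.047, changes of 0.20, −0.87 and −1.09) and Pan3, a subunit of a deadenylase (−0.37 ± 0.058).

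Structural genes of the contractile apparatus were slightly higher, most at 24 h. Of 20 measured ones, some of which also serve as smooth muscle markers above, 15 rose and 0 fell, with a median of 0.14 and medians at the 3 times of −0.015, 0.10 and 0.37. Des, the filament protein desmin, rose at every time (0.56 ± 0.05), and Ppp1r14a, an inhibitor of myosin phosphatase, averaged 0.39 ± 0.047 from changes of 0.068, 0.23 and 0.88. Acta2, smooth muscle actin, was not called (0.0066 ± 0.029), nor was vimentin, Vim (−0.028 ± 0.03). The regulators of the list were split, 2 higher and 2 lower of 7: Klf4, a repressor of contractile genes, fell (−1.75 ± 0.061, changes of −1.18, −1.54 and −2.53), as did Gata6, an activator (−0.73 ± 0.048). Myocd, the coactivator of smooth muscle genes, rose (average 0.26). Klf4 had Ang II values of 8.20, 9.34 and 9.79 (minimum, median, maximum), against 10.92, 10.85 and 10.97 in control. Striated muscle genes rose in 9 of 23 and fell in 1, led by skeletal actin, Acta1 (0.62 ± 0.033), and the myosin heavy chain genes Myh1 (0.58 ± 0.041) and Myh2 (0.29 ± 0.058). Without the 24 h arrays the average of Myh2 was −0.14. The list medians at 6, 12 and 24 h were 0.0078, −0.0044 and 0.26.

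Integrins, the receptors that hold cells to the matrix, were higher: of 14 measured 8 rose and 2 fell, with a median of 0.24. Itga5 (1.01 ± 0.03), Itga6 (0.90 ± 0.034), Itga7 (0.71 ± 0.042) and Itga4 (0.70 ± 0.067) rose at every time, and Itgb3 was not called (0.16 ± 0.062). The falls were those of Itga1, a collagen receptor chain (−0.20 ± 0.031, changes of −0.49, −0.32 and 0.22), and Itgb8 (−0.47 ± 0.078). Itga5, the chain that pairs with beta 1 to bind fibronectin, had Ang II values of 12.23, 12.54 and 12.89 (minimum, median, maximum), against 11.51, 11.56 and 11.59 in control. Matrix genes were changed often but in both directions: of 61 measured 17 rose and 22 fell (63.9% called), and 14 rose and 11 fell at every time. Lama5, a laminin chain of the basement membrane, rose (1.03 ± 0.033), as did Loxl4, a lysyl oxidase that crosslinks collagen (0.96 ± 0.043), while the small proteoglycan gene Omd fell (−1.45 ± 0.074). Of the fibroblast markers, Lum (average −0.59) and Dcn (−0.51) fell in the same list, beside the marker levels of 8.84 to 8.97 in Ang II and 9.23 to 9.26 in control arrays given above, and the part of that shift in the matrix genes was not tested. Bgn (−0.0037 ± 0.031) and Sparc (0.029 ± 0.031) were not called.

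Plasminogen and coagulation genes rose in 10 of 20 and fell in 1, Thbd. After Plat and Tfpi2 came Serpinb2, the plasminogen activator inhibitor PAI-2 (1.56 ± 0.16), with changes of 2.37, 2.14 and 0.17 and control values under the mark of 6.61. Of the ADAMTS proteases, which cut aggrecan and related matrix proteins, 0 of 9 rose and 5 fell, with a median of −0.46. They included Adamts9 (−1.03 ± 0.044), Adamts5 (−0.95 ± 0.069) and Adamts3 (−0.82 ± 0.069). Of 17 MMP and TIMP genes 4 rose and 4 fell, among them Mmp16 (−0.72 ± 0.056), and Timp2 was not called (0.016 ± 0.031). Regulators of calcification rose in 8 of 18 and fell in 0. Enpp1, which makes the inhibitor pyrophosphate, rose at every time (changes of 1.21, 1.23 and 1.03, average 1.16 ± 0.032), and so did the pyrophosphate exporter gene Ankh (1.49, 0.92 and 0.28, average 0.90 ± 0.044), the phosphate transporter gene Slc20a2 (0.65 ± 0.035) and Tnfrsf11b, osteoprotegerin (0.53 ± 0.033).

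Growth factor ligands were called in 71.9% of 32 measured genes, 9 higher and 14 lower. Fgf16 (−1.79 ± 0.079), the EGF family ligands Nrg1 (−1.40 ± 0.047) and Ereg (−1.38 ± 0.067) and Pdgfd (−1.19 ± 0.062) fell at every time. Ereg, epiregulin, fell progressively, with changes of −0.26, −1.41 and −2.45, while Fgf16 fell most at 6 h, with −2.75, −1.35 and −1.28. Rises were led by the FGF gene Fgf2 (1.03 ± 0.051, changes of 1.54, 0.74 and 0.82), the insulin-like growth factor gene Igf1 (1.11 ± 0.075, 1.55, 1.44 and 0.33) and Pdgfa, a PDGF chain (0.74 ± 0.036, 0.99, 0.63 and 0.60). Hbegf, another EGF receptor ligand, was not called (0.054 ± 0.048) and had changes of 0.88, −0.59 and −0.13. Of 20 growth factor receptors 6 rose and 8 fell. Besides Flt1, these included Pdgfra, the PDGF receptor alpha and a fibroblast marker (−1.26 ± 0.051), Met, the receptor of hepatocyte growth factor (−1.26 ± 0.047), and Fgfr2 (−0.59 ± 0.039, changes of −1.14, −0.56 and −0.081). Pdgfra had Ang II values of 8.17, 8.37 and 8.58 (minimum, median, maximum), against 9.63, 9.67 and 9.64 in control. Egfr, the EGF receptor, was not called on average (0.031 ± 0.058), with changes of 0.21, 0.14 and −0.25, called higher at 6 h and lower at 24 h.

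Genes of the TGF-beta and BMP pathway were called in 81.6% of 38, 14 higher and 17 lower. Bmp6 (−1.67 ± 0.061) and the BMP-responsive genes Id1 (−1.02 ± 0.063) and Smad6 (−0.97 ± 0.042) fell at every time, and Fst, the activin antagonist follistatin, rose at every time (1.07 ± 0.053). Bmp6 had Ang II values of 7.71, 8.19 and 8.38 (minimum, median, maximum), against 9.77, 9.69 and 9.75 in control. Of 35 Wnt pathway genes 5 rose and 15 fell, among them the ligand gene Wnt5a (−0.82 ± 0.065) and the Wnt agonist gene Rspo1 (−0.77 ± 0.047), while Ccn4, a secreted protein induced by Wnt signalling, rose (0.80 ± 0.033). Of 16 Notch pathway genes 4 rose and 4 fell. Nrarp, a target and inhibitor of the pathway, rose at every time (0.55 ± 0.057, changes of 1.11, 0.33 and 0.22). The target genes Hes1 (−1.08 ± 0.067) and Hey2 (−0.74 ± 0.032) fell at every time, and the ligand gene Jag1 fell on average (−0.57 ± 0.035) from changes of −1.51, −0.25 and 0.065.

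Among vasoactive genes, receptors were called in 58.1% of 31 (10 higher, 8 lower). Ramp3, which turns the calcitonin-like receptor into an adrenomedullin receptor, rose on average (1.77 ± 0.094), but its changes were 2.72, 2.45 and 0.15. Npr3, the clearance receptor of natriuretic peptides (−1.53 ± 0.067), Adra1b, the alpha-1B adrenoceptor (−1.44 ± 0.081), and Ackr3, a scavenging chemokine receptor (−1.26 ± 0.043), fell at every time. Vasoactive ligands and enzymes were called in 78.3% of 23 (7 higher, 11 lower). The calcium-dependent phosphodiesterase gene Pde1a fell (−1.50 ± 0.058), and the cyclic AMP phosphodiesterase genes Pde3a (1.02 ± 0.038) and Pde4d (0.79 ± 0.047) rose at every time. Regulators of G protein signalling rose in 6 of 17 and fell in 2, with Rgs17 (0.58 ± 0.037), Grk5 (0.56 ± 0.048), Grk6 (0.39 ± 0.048) and Rgs16 (0.38 ± 0.062) the largest. The changes of Rgs16 were 1.33, −0.20 and 0.0045.

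Calcium handling genes rose in 14 of 31 and fell in 5. The receptor-operated channel genes Trpc4 (1.16 ± 0.043) and Trpc6 (0.71 ± 0.058) and Trpv2 (0.53 ± 0.057) rose at every time, and the sodium-calcium exchanger gene Slc8a1 fell (−0.44 ± 0.049). Potassium channel genes were called in 38.1% of 21, beside 31.0% of all genes. Kcnn4, the intermediate-conductance calcium-activated channel, rose (1.15 ± 0.074, changes of 2.05, 1.21 and 0.20), and Kcnd3, a channel of transient outward current, fell at every time (−1.31 ± 0.036). In the calcineurin list 3 of 12 rose and 3 fell, with Rcan2, a calcineurin inhibitor, higher (0.44 ± 0.041) and the catalytic subunit genes Ppp3cc (−0.42 ± 0.043) and Ppp3ca (−0.26 ± 0.035) lower. Rhob, an immediate-early GTPase, fell evenly (changes of −1.08, −1.06 and −1.16, average −1.10 ± 0.049). The stretch-responsive gene Ankrd1 fell most at 6 h (changes of −1.75, −0.46 and −0.52, average −0.91 ± 0.052), and the kinase gene Rock2 rose at every time (0.50 ± 0.04). Rnd1, whose product loosens cell adhesion, averaged 0.54 ± 0.047 from changes of 1.72, 0.18 and −0.27. Rhoa was not called (0.041 ± 0.032).

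Of 16 lysophospholipid genes 4 rose and 5 fell. The lysophosphatidic acid receptor genes Lpar4 (−1.43 ± 0.071) and Lpar1 (−1.32 ± 0.057) fell at every time, Plpp3, which degrades the ligand, fell on average (−1.20 ± 0.057, changes of −2.14, −1.36 and −0.094), and the sphingosine-1-phosphate receptor gene S1pr1 rose (0.86 ± 0.041). Inflammatory genes rose in 10 of 33 and fell in 5. Vcam1, an adhesion molecule for leukocytes (−1.61 ± 0.082), Il6 (−0.90 ± 0.085) and Cxcl12 (−0.77 ± 0.038) fell at every time, while the chemokine gene Cxcl16 rose (1.33 ± 0.04, changes of 2.01, 1.80 and 0.19). The NF-kappaB genes Nfkb1 (0.069 ± 0.045) and Nfkbia (−0.088 ± 0.071) were not called on average, although Nfkb1 was called higher at 6 h (0.21). Of 23 interferon-responsive genes 6 rose and 4 fell: Usp18, which ends interferon signalling, averaged 1.52 ± 0.17 from changes of 3.16, 1.17 and 0.24, with only its 6 h values above the mark of 6.61, and Cd74, the invariant chain of MHC class II, averaged 1.45 ± 0.058 from changes of 0.85 at 6 h and 1.99 at 24 h, with the 12 h change between them. Cd74 thus had its largest change at 24 h and Usp18 at 6 h. Ciita, the transactivator on which MHC class II genes and Cd74 depend, rose at every time (0.43 ± 0.053), with changes of 0.64, 0.37 and 0.27. Of 9 scavenger and lipid uptake receptors 2 rose and 3 fell. Besides Olr1, values were lower for Cd36 (−0.86 ± 0.062, changes of −0.26, −0.58 and −1.74) and Scara5 (−0.83 ± 0.067) and higher for Scarb1 (0.34 ± 0.044). Retinoid genes rose in 2 and fell in 5 of 17, led by Aldh1a2, which makes retinoic acid (−1.53 ± 0.12, changes of −0.72, −1.63 and −2.25). The retinoid X receptor genes Rxra (−0.31 ± 0.038) and Rxrb (−0.26 ± 0.049) fell as well.

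Cholesterol synthesis genes were higher on average, through 6 and 12 h. Of 21 measured genes 18 rose on average and 0 fell (85.7% called), with a median of 0.26. Of these genes 3 rose at every time, 8 were called in opposite directions at 2 times, and the medians at 6, 12 and 24 h were 0.32, 0.54 and −0.052. Hsd17b7 (0.61 ± 0.039, changes of 0.85, 0.89 and 0.078), Nsdhl (0.56 ± 0.035, 0.66, 0.84 and 0.16), Idi1 (0.44 ± 0.042, 0.78, 0.70 and −0.15) and Acat2 (0.40 ± 0.042, 0.59, 0.79 and −0.16), all enzymes of the pathway, had the largest averages. Insig1, the sterol-regulated brake on the pathway, was not called on average (−0.022 ± 0.033), and without the 24 h arrays its average was 0.29. Fatty acid synthesis genes rose in 7 of 16 and fell in 1, none of them called at every time, with medians of 0.1, 0.35 and −0.058. The largest were Acsl4 (0.38 ± 0.035), Scd (0.34 ± 0.048), Fasn (0.34 ± 0.033) and Acly (0.25 ± 0.041).

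Glycolysis and hypoxia genes rose in 21 of 34 and fell in 6 (79.4% called), and 9 rose and 4 fell at every time. Slc16a3, the lactate exporter, rose at every time (0.93 ± 0.036), and Pfkp, a phosphofructokinase, rose on average (0.64 ± 0.054) from changes of 1.18, 0.91 and −0.18. In the hypoxia part of the list, the prolyl hydroxylase gene Egln3 (−0.66 ± 0.047) and Adm, the vasodilator adrenomedullin (−0.73 ± 0.06), fell at every time. Chaperones of the endoplasmic reticulum rose in 13 of 19 and fell in 1, with medians of 0.26, 0.17 and −0.03. Atf6, a sensor of unfolded proteins, rose at every time (0.75 ± 0.036), and Herpud1 fell (−0.34 ± 0.054). Heat shock genes rose in 7 of 16 and fell in 3, with Hsph1 (0.67 ± 0.029) and Hspb1 (0.53 ± 0.037) higher at every time. Of 25 ATF4 targets and amino acid transporters 9 rose and 7 fell, and 8 were called in opposite directions. Slc7a8, a transporter of neutral amino acids, averaged 1.95 ± 0.041 although its changes were 3.45, 2.81 and −0.39, a range of 3.84. Slc7a3, a transporter of cationic amino acids, rose at every time (1.19 ± 0.051, changes of 1.33, 1.31 and 0.93). Trib3 (−0.57 ± 0.042) and Chac1 (−0.63 ± 0.054), which ATF4 induces under amino acid shortage, fell on average.

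Redox genes rose in 11 of 36 and fell in 9. Nox1, the superoxide-producing oxidase, rose (1.12 ± 0.06, changes of 1.41, 1.61 and 0.34), Nqo1 rose on average (0.64 ± 0.035, changes of 1.12, 0.98 and −0.17) and Gclc, the catalytic subunit of glutathione synthesis, fell (−0.62 ± 0.041). Clock genes were called in 73.3% of 15, 3 higher and 8 lower, and 7 of them in opposite directions, with medians of −0.015, −0.56 and 0.031. Dbp, an output factor of the clock, averaged −0.53 ± 0.045 from changes of −1.32, −0.80 and 0.54, and Per3 averaged −0.71 ± 0.043 from −1.18, −1.01 and 0.054, whereas Bhlhe41 fell at every time (−0.81 ± 0.053).

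The translation machinery gave small shifts. Of 71 cytosolic ribosomal protein genes 0 rose and 36 fell, with a median of −0.10 and medians over the times of −0.061, −0.064 and −0.19. Rpl22l1 (−0.59 ± 0.08) and Rpl15 (−0.40 ± 0.053) had the largest falls, and Rps29 was not called (−0.021 ± 0.03). Many ribosomal protein genes have near-identical copies in the genome, so that their probes may read more than 1 gene. Ribosome biogenesis genes rose in 2 of 27 and fell in 8, and 11 were called in opposite directions, with medians of 0.28, −0.15 and −0.16. Npm1, nucleophosmin, fell at every time (−0.39 ± 0.043), and Gnl3, nucleostemin, averaged −0.31 ± 0.051 from changes of 0.19, −0.60 and −0.52. The other probe set of Gnl3 averaged −0.12 and was not called. Of 44 translation initiation factors 9 rose and 9 fell, with Eif4a2 (−0.56 ± 0.04) and Eif4b (−0.38 ± 0.035) lower at every time. Of 19 tRNA synthetase genes 3 rose and 3 fell (31.6%, near the 31.0% of all genes), Qars1 lower (−0.33 ± 0.042) and Nars1 higher (0.25 ± 0.037) among them. Proteasome genes rose in 16 of 41 and fell in 1, led by Psmb10 (0.47 ± 0.054) and Psmc3 (0.31 ± 0.034), and the fall was that of the activator subunit gene Psme1 (−0.21 ± 0.041).

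Mitochondrial ribosomal protein genes were called in 21.5% of 65 (6 higher, 8 lower), Mrpl49 higher (0.29 ± 0.05) and Mrps33 lower (−0.35 ± 0.056) at every time, and oxidative phosphorylation genes in 17.6% of 74 (6 higher, 7 lower). Among the oxidative phosphorylation genes Atp5mc2 fell (−0.31 ± 0.039) and Atp5f1d was not called (0.0068 ± 0.032). Zinc finger protein genes rose in 11 and fell in 29 of 152 (26.3%), and solute carriers rose in 69 and fell in 42 of 309 (35.9%), among them Slc26a7 (−1.66 ± 0.082) and Slc38a4 (−1.21 ± 0.048). Lysosomal genes rose in 6 and fell in 5 of 26 (42.3%), with Npc1 (0.42 ± 0.049) and the sialidase gene Neu1 (0.41 ± 0.044) higher and Ctsc lower (−0.41 ± 0.034), and autophagy genes rose in 6 and fell in 3 of 23 (39.1%), with Map1lc3a higher (0.43 ± 0.04). Olfactory receptor genes, which serve here as a guide to background, were called in 4.57% of 788, 31 higher and 5 lower, with a median of 0.060. Of the 4467 genes whose mean level lay under 6.61, 190 were called higher and 104 lower.

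**Figure D5:**
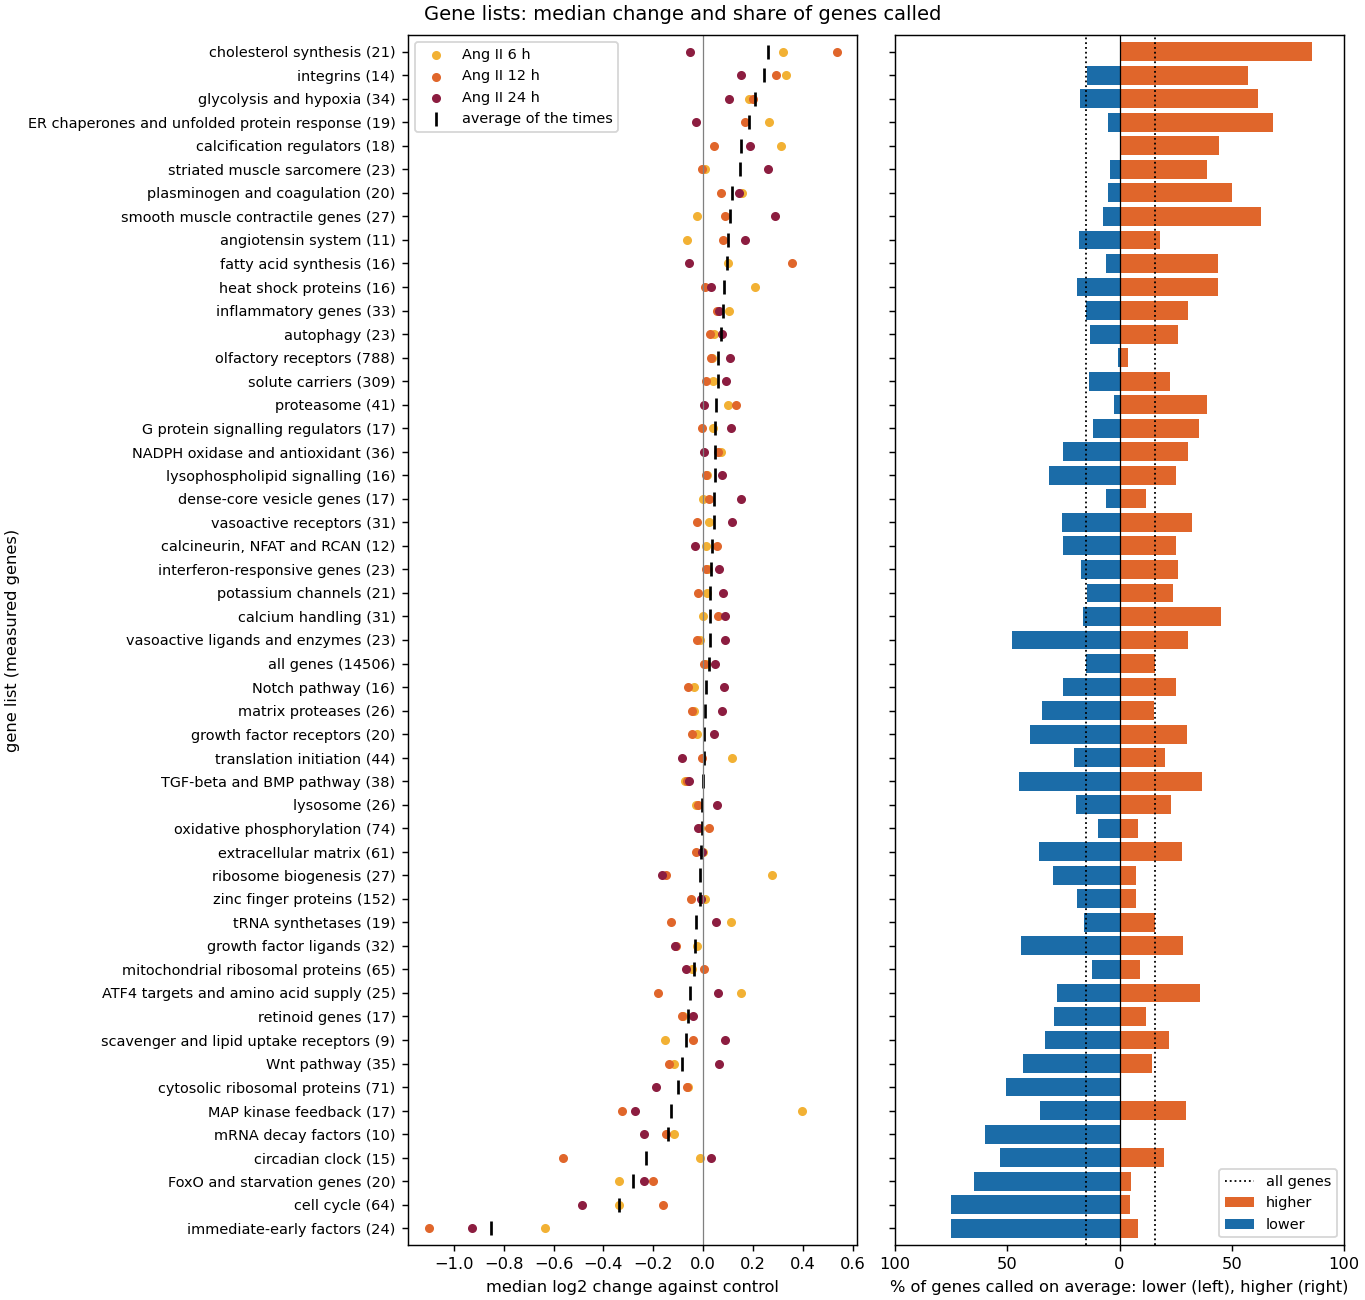
Left, median log2 change against control of each gene list described at 6, 12 and 24 h (coloured points) and averaged over the times (black bars), with lists ordered by the averaged median and the number of measured genes in brackets. Right, the share of each list called higher (right of 0) and lower (left of 0) on average, with dotted lines at 15.9% and 15.1%, the shares of all genes; cholesterol synthesis stands at the upper end and immediate-early factors at the lower end.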

How the data were processed

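The 12 arrays (Rat Gene 1.0 ST, Affymetrix) each measured 1 sample of RNA, per the labels. The authors deposited 1 table of log2 values; the submitters' processing notes name Partek and RMA, a method that corrects background, normalizes by quantiles and summarises probes, without versions, summary level or filters. Levels are therefore relative to the other probes of an array, and the background of a probe set is unknown.

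The value table held 29214 rows; 15310 probe sets had exactly 1 symbol, 323 had several, and 13581 were unnamed here. For each of 14506 genes the probe set with the highest mean was kept, and names were updated through RefSeq (14481 by gene identifier, 5 by accession, 20 unmatched, 2 changed). limma 3.58.1 (R 4.3.3) fitted 4 group means to the 12 arrays, with Benjamini-Hochberg adjustment over all genes and a threshold of 0.05, two-sided. The averaged contrast, the F test among the Ang II times and each time minus control came from 1 fit. A gene was called at every time when all 3 single comparisons and the average passed in one direction, steady when the F test in addition did not pass, and opposite when calls at 2 times differed in sign. An SE is that of the averaged log2 change with moderated variance (3 arrays per group). The procedure was tested on simulated data. Of 100 genes simulated as 2-fold higher at 6 h only, 70 were called on average and 0 at every time. Of 50 genes each simulated as higher at all 3 times, 32 were called at every time at 1.25-fold and 39 at 1.5-fold. At 2-fold 48 were called at every time, and at 4-fold 50.

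Genes, lists and markers were chosen with earlier results of these data known. Named genes were the 12 largest averaged rises and falls with all 9 Ang II arrays on one side of the 3 control arrays, the 6 largest steady rises and falls, the 5 opposite genes of each 6 h sign with the widest range, the 3 average-only genes of each sign with the smallest p, the AT1 and AT2 receptor genes, and per list up to 4 called members with the largest change and 2 not called with the highest level. Fosl1, Klf10, Bub3, Ccnd2, Cdk6, Cdkn1a, Trib2, Itga1, Itgb8, Fgf2, Igf1, Pdgfa and Psme1 fall outside this rule and were named after their values were seen. Markers of 6 cell types were a separate list. The counts and medians of 1 gene list are not reported here.

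Replicate numbers of the titles were not taken to pair arrays. The correlation of deviations between same-numbered arrays ranged from −0.103 to 0.299 over 18 pairs, and 3 pairs were over 0.1. Alternatives changed the block, the arrays, the times, the low-value filter, the probe sets, the normalization, the variance model, the weights and the threshold. Promoter sequences were those of RefSeq (GRCr8), the first listed per gene, for 11951 genes, and both strands were searched. No genome coordinates accompany the deposited values.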

Additional observations from a re-analysis of the deposited data

Results flagged for a closer look

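Levels differed among the Ang II times in 6539 genes by the F test among the Ang II groups, and 724 genes were called in opposite directions at 2 times. Longer exposure and longer culture cannot be told apart in these differences. The 24 h change minus the 6 h change was −2.18 (log2) for Mtmr10, −1.57 for Sgk1, −1.60 for Etv5, −1.30 for Noct and −1.49 for Samd5, which were higher at 6 h. It was 2.44 for Rab39a, 1.86 for Rgs4, 1.49 for Epm2a, 1.44 for Kcne4 and 1.39 for Slc35f2, which were lower at 6 h.

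Signal also appeared in probe sets that no comparison used. Of 13581 probe sets unnamed here, 2024 were called on average (14.9%; limma, adjusted over all 29214 rows of the table), 837 higher and 1187 lower, and at least 1.5-fold in 75 and 251 of them. They may hold transcripts, probes of several genes and controls, which were not told apart.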

How the results depend on the processing

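The number of genes called on average fell to 1635 when the times were ignored, since differences among times then enter the error. Testing against 1.2-fold, a stricter hypothesis by construction, left 953 genes on average, 306 at every time, 71 steady and 51 opposite. Leaving out 1 array gave 3657 to 4553 genes on average, 5843 to 6432 differing among times, 1249 to 1512 at every time, 406 to 536 steady and 487 to 771 opposite. With the replicate block the counts were 4378, 6447, 1466, 494 and 659. The other alternatives kept each of these counts within 1.5 times, but they did not all test the same number of genes. The fit of genes at or above the median level tested only 7253 genes. It gave 4160 on average, 5549 differing among times, 1616 at every time, 395 steady and 942 opposite. Each is a larger share of the genes tested than the share reported for all genes, so the similar counts do not show similar shares.

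Leaving out a whole time turned the sign of 65 named genes, 22 of which were called before or after. Among these 22, the averages without 6 h were −0.39 for Noct, −0.27 for Samd5, 0.31 for Rgs4, 0.29 for Kcne4, −0.098 for Rgs16, −0.36 for Hbegf, 0.12 for Lgr4, −0.049 for Rnd1, 0.17 for Wdr75 and −0.20 for Dlx5. Without 12 h they were 0.26 for Sgk1 and 0.17 for Slc7a5. Without 24 h they were 0.49 for Mtmr10, 0.23 for Sgk1, 0.36 for Etv5, −0.54 for Rab39a, −0.43 for Epm2a, −0.26 for Slc35f2, −0.14 for Fosl2, 0.29 for Pgf, −0.14 for Myh2, 0.29 for Insig1 and 0.12 for Elovl6. Changed group means are the construction of this alternative. Of 8222 alternative values of named genes, 7606 kept direction and call, 210 lost the call, 199 gained one and 207 turned sign, 184 of these called neither way.

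Median centring raised the share of calls that were higher to 60.6%, against 51.3% as reported. Of 968 list medians 184 moved by more than the spread, 78 of them without a whole time, and 13 lists with medians within 0.045 of 0 changed sign under median centring or quantile normalization (matrix, matrix proteases, TGF-beta and BMP, growth factor receptors, interferon, dense-core vesicle, lysosome, oxidative phosphorylation, potassium channel, ribosome biogenesis, tRNA synthetase, translation initiation and zinc finger genes). For genes near background, no detection call was available. Probe sets of 1 gene differed in sign for Hspa8 and Rps4x among named genes, neither of them called.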
